A study of Homo sapiens with 33 samples.

Results

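PEO6 and PEO4 are ovarian carcinoma cell lines established from the ascites of the same patient at different times, both resistant to platinum. They were compared directly, line against line, to ask how far resistant cells of a single origin differ from each other. The comparison used 6 of the 33 mRNA sequencing libraries of the series, 3 of PEO6 and 3 of PEO4, chosen by cell line name. The whole series covered 11 lines in 4 families of sensitive and resistant models of high-grade serous carcinoma, the most common and most lethal type of ovarian cancer. PEO1, the platinum-sensitive line from the same patient, is given as a level beside the other lines and entered no test. PEO4 and PEO6 were grown in the same medium, an RPMI formulation with fetal bovine serum and sodium pyruvate, and the labels give no drug treatment for any of the 9 libraries of the family. Each line is a single culture line, so every difference is between these lines and not between early and late disease in general. The labels number the replicates but do not say whether they came from separate cultures, so p-values measure the spread between these libraries, which may be technical.

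High-grade serous carcinomas resemble the epithelium of the fallopian tube, a derivative of the Mullerian duct, and are recognized by the transcription factors PAX8 and WT1, by keratins and by surface antigens such as MUC16 (CA125). Platinum drugs kill by crosslinking DNA, and cells survive them in many ways, among them altered drug handling, DNA repair, slower division and a change of cell state. Cell state in these tumors is read from lineage transcription factors, cadherins and keratins, intermediate filaments such as vimentin, and signaling pathways including WNT, BMP, Notch and receptor tyrosine kinases.

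Of 18 tested genes that mark high-grade serous carcinoma, 6 were higher in PEO6 and 2, PAX8 and ESR1, were lower, against shares of 9.86% and 8.33% of all genes tested. Without both libraries of replicate 2 there were 2 higher and none lower, and edgeR called none lower. PAX8 gave 76.5, 75.9 and 70.1 TPM in PEO4 and 35.7, 46.6 and 54.7 TPM in PEO6, without overlap. WT1 stood at 128, 125 and 131 TPM in PEO4 and at 119, 118 and 139 TPM in PEO6 (TPM, abundance scaled for transcript length and library size, is the unit of all levels below, given in the order of replicates 1, 2 and 3). EPCAM, an epithelial adhesion molecule, gave 713, 781 and 906 TPM in PEO4 and 771, 794 and 579 TPM in PEO6. The ranges of WT1 and EPCAM overlapped, and neither passed the test (DESeq2 adjusted p 0.887 and 0.708). Markers of other cell types varied in level. Of the leukocyte markers, PTPRC, CD3D, CD3E, CD2, MS4A1 and CD163 were among 10 of 18 at 0 in all 6 libraries, while CD68, a lysosomal protein not limited to macrophages, gave 30.4, 32.9 and 21.7 TPM in PEO4 and 9.73, 8.66 and 12.1 TPM in PEO6. Among fibroblast markers DCN, LUM and PDGFRA did not exceed 0.215 TPM but THY1 stood at 91.2 to 128 and 83.6 to 124 TPM, and among endothelial markers PECAM1, CDH5 and VWF did not exceed 0.236 TPM. The 18 leukocyte markers summed to 23.7 to 35.0 TPM in PEO4 and 10.6 to 14.1 TPM in PEO6, the 13 endothelial markers to 3.85 to 7.97 and 2.71 to 3.72 TPM, the 14 fibroblast markers to 106 to 150 and 104 to 160 TPM, and the 11 mesothelial markers to 103 to 280 and 174 to 351 TPM. Of these lists CD68, FLT1, TIE1, ROBO4 and BNC1 were called lower in PEO6, and COL3A1, COL1A2, GATA6 and PDPN higher. The call of CD68 was lost without replicate 2 (adjusted p 0.118), and those of COL1A2 and ROBO4 whichever of the replicate numbers 1, 2 and 3 was left out (0.157 to 0.403 and 0.125 to 0.338).

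The libraries held 24597206 to 33805970 counts, and mitochondrial rRNA took 2.56% to 5.59% of them. PEO6 replicate 3 stood apart from the other PEO6 libraries. Across genes, its log2 normalized counts correlated with theirs at r = 0.923 to 0.933, where replicates 1 and 2 reached 0.963 with each other. It was nearer to PEO4 (r = 0.853 to 0.891) than they were (0.804 to 0.846). Of the 2126 called genes with a mean normalized count of at least 100, it lay past the midpoint toward the PEO4 mean in 526 (24.7%), against 0.564% to 4.66% for each of the other 5 libraries. Results that rest on it are given with and without it below. The source of its position was not tested.

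DESeq2 tested 16728 of the 29744 genes in the table and called 3043 of them (18.2%) at an adjusted p under 0.05. The replicate number was a term of the model. Of these, 1650 were higher in PEO6 (9.86% of genes tested) and 1393 were lower (8.33%). The median log2 fold change of all genes tested was 0.02. The normalized counts of the lines did not overlap in 2880 of the called genes, beside 7049 (42.1%) of all genes tested. At least 2-fold changes were seen in 1513 of the higher and 1059 of the lower genes, and at least 8-fold changes in 455 and 201. In 56 called genes all 3 PEO4 libraries had 0 counts, and in 19 all 3 PEO6 libraries did. These are bulk libraries, in which fewer cells expressing a gene and less RNA per cell cannot be told apart. With the line as the only term 4563 genes were called. Without PEO6 replicate 3 as well, 6166 were called (3081 higher, 3085 lower), and 3012 of the 3043 were among them in the same direction. Throughout, fits without a single library had the line as the only term. With the replicate term kept and without both libraries of replicate 2 the count was 752, of which 748 were among the 3043. Fits without a replicate number, here and elsewhere, keep the replicate term on fewer libraries and measure the spread poorly. A call lost in them cannot be told apart from a loss of precision.

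**Figure D1:**
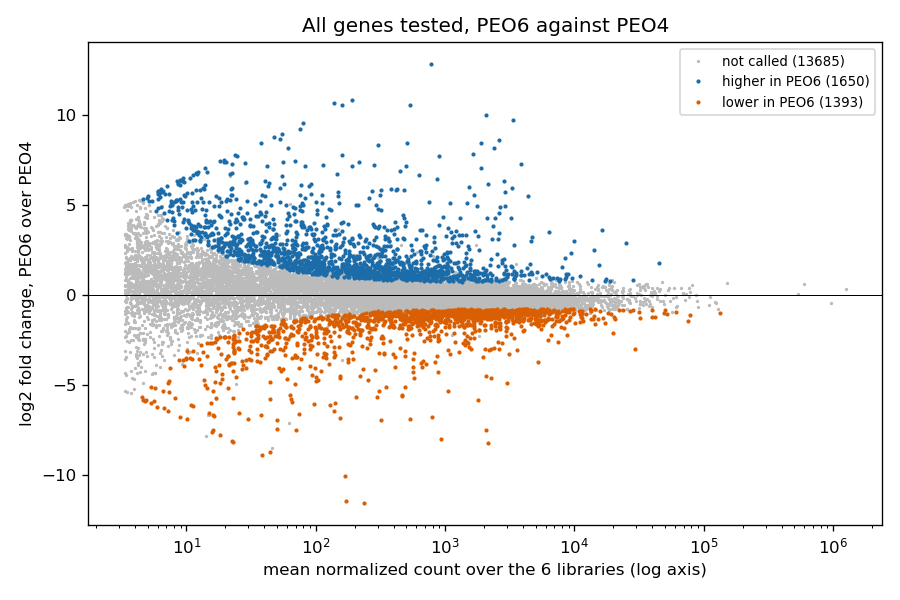
Log2 fold change of PEO6 over PEO4 (vertical axis) against the mean normalized count over the 6 libraries (horizontal log axis) for each of the 16728 genes tested, 1 point per gene. The 1650 genes called higher are blue, the 1393 called lower are orange, and the 13685 not called are grey.

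The largest increases were of genes that PEO4 did not express or barely expressed. LHX1 (chromosome 17, 36936785 to 36944612, GRCh38.p14), a LIM homeobox factor needed for kidney and Mullerian duct formation, gave 28.6, 35.0 and 19.1 TPM in PEO6 and 0 in all 3 PEO4 libraries. Against a floor of 3 counts per PEO4 library, it was at least 459-fold higher (DESeq2 adjusted p 1.34e-12). SOX17, a Mullerian and endoderm factor that partners PAX8, gave 8.04, 10.8 and 11.7 TPM in PEO6 and 0 in PEO4 and in PEO1, which makes it at least 111-fold higher. CDH8, a neuronal type II cadherin, was likewise at 0 in PEO4 and PEO1 and at 4.24, 5.13 and 6.58 TPM in PEO6, at least 92.6-fold higher. In none of these genes did PEO6 replicate 3 resemble PEO4. Without both libraries of replicate 1 the calls of SOX17 and CDH8 were lost (adjusted p 0.0707 and 0.0844), as they were without replicate 2 (0.122 and 0.135). Neither was lost when any single library was left out with the line as the only term.

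PROM1, which encodes the pentaspan membrane protein CD133, a widely used marker of tumor-initiating cells, had a different history in the family. It stood at 0.17, 0.0928 and 0.118 TPM in PEO4 and at 91.5, 86.6 and 155 TPM in PEO6, a log2 fold change of 9.76 ± 0.45 (SE, adjusted p 6.37e-102). PEO1 gave 304, 213 and 269 TPM. PROM1 was thus abundant in the sensitive line and in PEO6, and close to 0 in PEO4 alone. The other large increases were of genes low in PEO1 too. SLC38A5, a glutamine and glycine transporter, gave 0.118, 0.21 and 0.0932 TPM in PEO4 and 103, 126 and 187 TPM in PEO6. EPHA3, an ephrin receptor of embryonic mesenchyme and nervous system, went from 0.0647, 0.259 and 0.0961 to 44.1, 57.7 and 63.2 TPM. SLC34A2, the phosphate transporter NaPi2b and an antibody-drug target in ovarian cancer, gave 0.216, 0.183 and 0.0501 TPM in PEO4 and 29.3, 67.8 and 71.1 TPM in PEO6. IGFBP7, a secreted IGF-binding protein, rose from 1.49, 0.591 and 0.548 to 217, 135 and 240 TPM. For these 4 genes the lowest PEO6 library was far above the highest PEO4 library, and the log2 fold changes lay between 7.83 ± 0.39 and 9.99 ± 0.55 (SE, adjusted p at most 1.39e-67).

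The remaining genes of the 12 largest increases were ADAMTS5, PCDH15, PDE1A and EDIL3. ADAMTS5, an aggrecan-degrading protease, had at most a few counts in any PEO4 library (0.00755, 0.0055 and 0 TPM) and 5.43, 8.85 and 5.51 TPM in PEO6, a ratio of 1445 with a 95% counting interval of 400 to 11934. EDIL3, a secreted integrin ligand, gave 0.236, 0.183 and 0.175 TPM against 44.6, 80.3 and 56.3 TPM. PCDH15 and PDE1A rose by 8.44 ± 0.62 and 8.33 ± 0.75 on the log2 scale (SE).

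The largest decreases were led by TMEM132E (chromosome 17, 34579582 to 34639318), a transmembrane protein of hair cells and neurons. It gave 8.11, 6.65 and 5.44 TPM in PEO4 and 0 in all 3 PEO6 libraries, at least 180-fold lower by the same floor. BDKRB1, the inducible bradykinin receptor, had 12.2, 17.1 and 19.3 TPM in PEO4 and 0.0425, 0 and 0 TPM in PEO6. Its PEO1 libraries (16.8, 17.7 and 21.1 TPM) were like those of PEO4. GJC1, the gap junction protein connexin 45, followed the same pattern, with 14.6, 14.1 and 13.2 TPM in PEO4, 0.0495, 0.0916 and 0.0465 TPM in PEO6 and 13.9 to 22.1 TPM in PEO1. AKR1D1, the steroid 5-beta-reductase, was nearly specific to PEO4 within the family. Its libraries lay close together there, at 93.5, 93.5 and 93.8 TPM, and gave 0.399, 0.0861 and 0.644 TPM in PEO6 and at most 0.713 TPM in PEO1. AKR1D1 fell by 8.22 ± 0.44 on the log2 scale (SE, adjusted p 3.52e-74).

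The other genes of this group included 3 developmental genes, DLX2, MAB21L1 and BNC1, and the EGFR ligand EREG (epiregulin). The rest were the semaphorin receptor PLXNA4, the serine protease TMPRSS11E, the synaptic adhesion gene LRRTM1 and the transcript FLJ26245. DLX2, a homeobox factor of forebrain and branchial arches, gave 23.6, 29.1 and 29.5 TPM in PEO4 against 0.203, 0.243 and 0.296 TPM in PEO6. BNC1, a zinc finger factor of basal and mesothelial cells, gave 26.2, 21.8 and 12.3 TPM against 0.13, 0.212 and 0.214 TPM. Levels of EREG fell from 9.95, 8.06 and 6.17 to 0.0758, 0.0235 and 0.118 TPM. No library of either line overlapped the other in any of the 24 genes, a condition of their choice. Without replicate 1 in both lines the calls of TMEM132E and BDKRB1 were lost (adjusted p 0.0542 and 0.0609), and without replicate 2 that of TMEM132E was lost (0.0726). With all 33 libraries in one fit those of CDH8 and TMEM132E were lost (adjusted p 0.268 and 0.224).

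**Figure D2:**
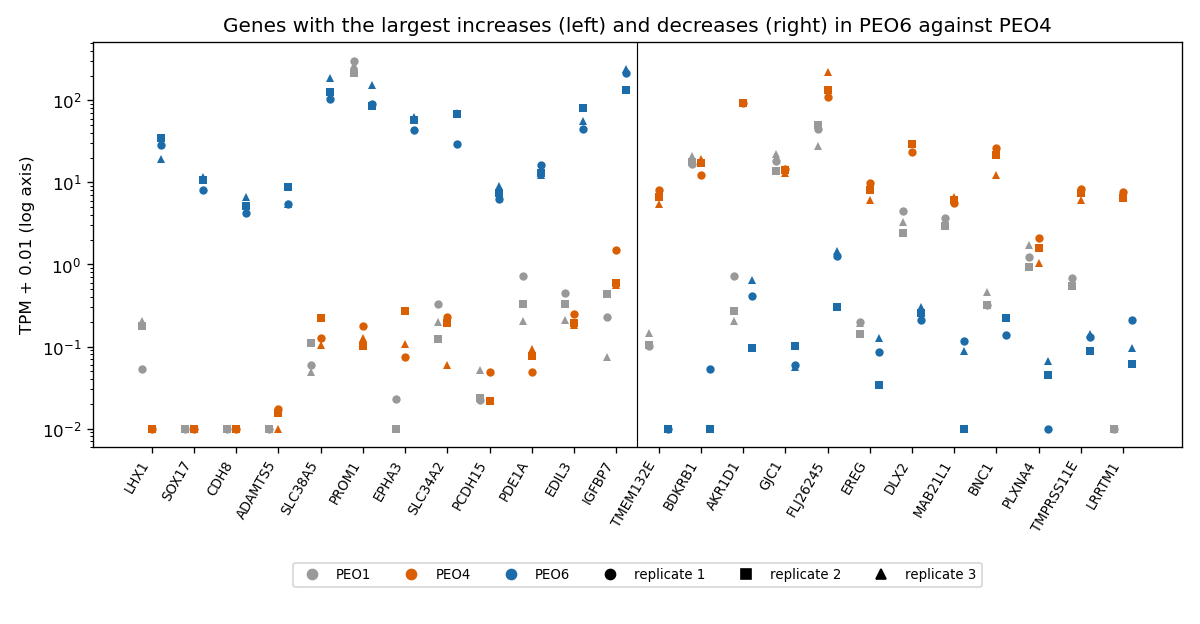
TPM plus 0.01 on a log axis in each of the 9 libraries of the PEO family for the 12 largest increases (left of the line) and the 12 largest decreases (right) in PEO6 against PEO4. Grey is PEO1, orange PEO4 and blue PEO6, and the symbol gives the replicate. PROM1 is high in PEO1 and PEO6, at 86.6 to 304 TPM, and BDKRB1 and GJC1 in PEO1 and PEO4, at 12.2 to 22.1 TPM.

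PROM1, VIM and TMEM132E are shown by the 250 bases before their start, since they differ widely in CpG content. The sequences are from RefSeq (GRCh38.p14), 5′ to 3′ in the direction of transcription, with each CpG dinucleotide in capitals. For PROM1 the first of 4 listed starts was taken. VIM, the intermediate filament vimentin, is described with the mesenchymal genes below.
PROM1, chr4:16084024-16084273, minus strand: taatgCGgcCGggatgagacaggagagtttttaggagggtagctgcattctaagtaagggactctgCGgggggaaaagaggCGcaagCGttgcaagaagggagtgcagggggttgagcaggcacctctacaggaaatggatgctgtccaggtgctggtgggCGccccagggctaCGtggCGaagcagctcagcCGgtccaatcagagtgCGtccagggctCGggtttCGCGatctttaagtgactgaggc
VIM, chr10:17227991-17228240, plus strand: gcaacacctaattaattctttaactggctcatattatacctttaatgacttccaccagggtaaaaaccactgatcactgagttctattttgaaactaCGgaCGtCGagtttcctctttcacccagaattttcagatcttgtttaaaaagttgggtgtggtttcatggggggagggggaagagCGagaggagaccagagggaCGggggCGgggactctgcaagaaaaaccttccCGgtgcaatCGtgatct
TMEM132E, chr17:34579332-34579581, plus strand: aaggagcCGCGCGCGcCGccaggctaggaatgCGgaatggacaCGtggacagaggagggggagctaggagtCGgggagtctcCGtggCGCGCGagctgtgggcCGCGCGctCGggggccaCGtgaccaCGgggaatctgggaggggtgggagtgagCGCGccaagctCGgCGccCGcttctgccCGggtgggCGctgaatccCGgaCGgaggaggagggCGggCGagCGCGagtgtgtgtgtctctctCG
TMEM132E has 32 CpG in this stretch, a number that 15.1% of the 12284 tested genes with a listed promoter reach. PROM1 has 13, reached by 74.7%, and VIM has 8, reached by 84.6%. Over all 12284 genes the median was 20 CpG, and 81.3% had at least 10. Of the genes called higher by at least 8-fold, 287 had a listed promoter, with a median of 11 CpG and 53.3% holding at least 10. For the 135 called lower by at least 8-fold the median was also 11 and the share 52.6%. Both groups of strongly changed genes therefore lay below the whole set in CpG content, and hardly differed from each other. No methylation was measured in these libraries.

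By absolute level, abundant genes changed by smaller factors. CLU, the secreted chaperone clusterin, showed the largest fold change of the 8 largest TPM gains, from 229, 199 and 113 TPM in PEO4 to 958, 1438 and 1802 TPM in PEO6. PEO1 had only 2.26 to 3.05 TPM. CRABP2, a retinoic acid carrier, gave 733, 741 and 773 TPM against 1216, 1624 and 1647 TPM, and SNHG8, a snoRNA host transcript, gave 176, 191 and 173 TPM against 762, 933 and 404 TPM. The others were the ribosomal protein gene RPS29, the actin-binding TMSB4X, the splicing factor SF3B14 (SF3B6) and the respiratory chain subunits NDUFB9 and NDUFA1. Their log2 fold changes were between 0.82 ± 0.31 and 1.13 ± 0.34 (SE), and those of RPS29, TMSB4X, SF3B14 and NDUFB9 were not called by edgeR (adjusted p 0.102, 0.0759, 0.0731 and 0.0821). All 8 except CLU and SNHG8 lost the call without replicate 1, and without replicate 2.

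Among the 8 largest TPM losses was UCA1, a long noncoding RNA first described in bladder carcinoma and often linked to drug resistance. It gave 1264, 1288 and 1467 TPM in PEO4 and 201, 122 and 232 TPM in PEO6, with 355 to 408 TPM in PEO1. UCA1 fell by 2.96 ± 0.30 on the log2 scale (SE, adjusted p 2.34e-20). MT2A, the main metallothionein, gave 1684, 1781 and 3172 TPM in PEO4 and 307, 248 and 765 TPM in PEO6. HSP90AB1, a constitutive chaperone, gave 2671, 2775 and 1999 TPM against 708, 773 and 1622 TPM, where PEO6 replicate 3 lay near the PEO4 range. The glycolytic genes GAPDH and LDHA, the Y-box protein YBX1, the G protein subunit gene GNAS and SUMO2 fell by 0.91 ± 0.29 to 1.2 ± 0.30 on the log2 scale (SE). Without replicate 2 in both lines, the calls of these 5 and of HSP90AB1 were lost (adjusted p 0.0936 to 0.528), while those of UCA1 and MT2A were not. YBX1 was also not called by edgeR.

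Lists of genes by function were then counted, each beside the shares of all genes tested given above. Across the lists, 303 of 813 tested genes were called. Many of the listed genes are well expressed or were listed because they vary between such lines, so the share of a list is a description and says nothing about the list against other genes.

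**Figure D3:**
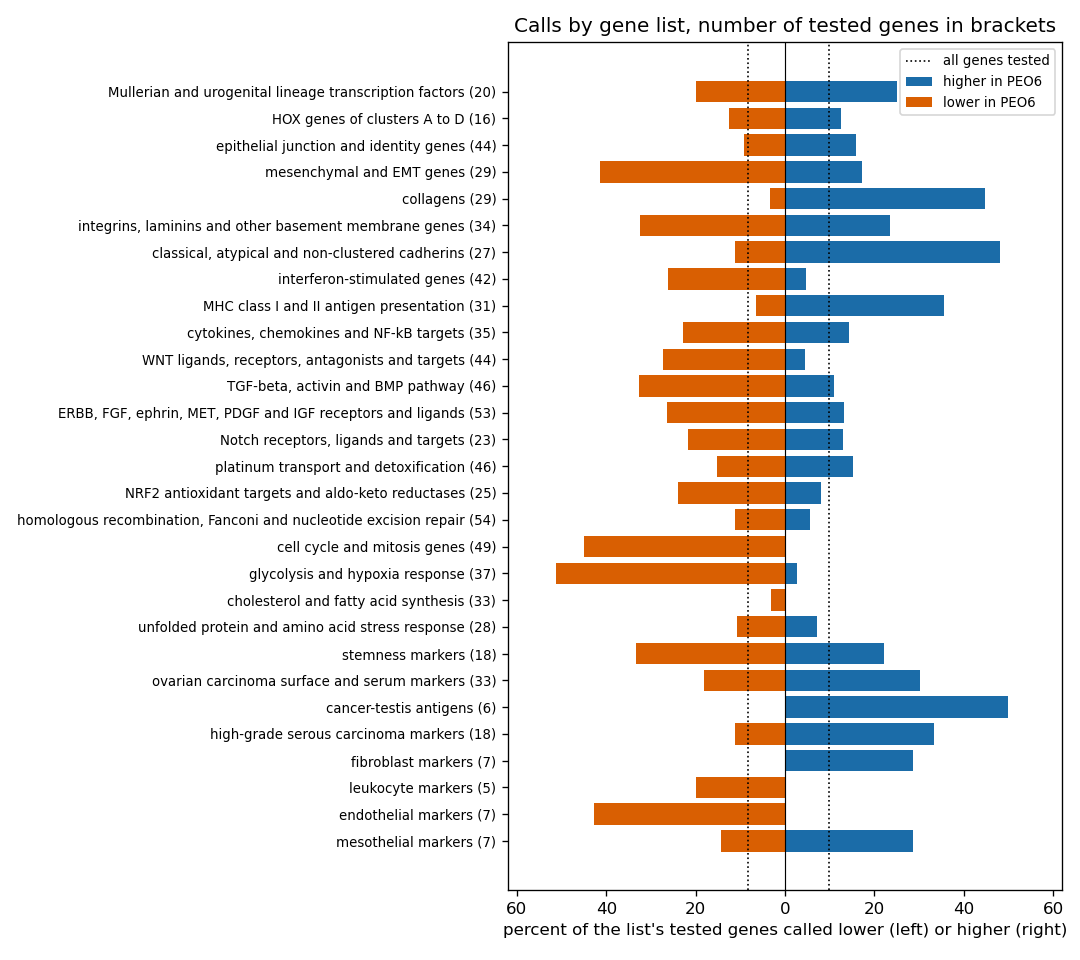
Percent of each list's tested genes called higher (blue, right) or lower (orange, left) in PEO6 against PEO4, with the number of tested genes in brackets. Dotted lines mark the shares of all genes tested, 9.86% higher and 8.33% lower. Cell cycle, glycolysis and mesenchymal genes extend furthest to the left among lists of at least 20 genes, and cadherins, collagens and MHC genes furthest to the right.

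The transcription factors of the Mullerian and urogenital lineage moved in both directions. Of 20 tested, 5 were higher and 4 lower, with a median log2 fold change of 0.03. Beside LHX1 and SOX17, the higher genes were GATA6, SALL4 and NR2F1. GATA6, a factor of endoderm and mesothelium, gave 0.139, 0.221 and 0.15 TPM in PEO4 and 2.76, 4.2 and 1.81 TPM in PEO6. TBX18, PAX8 and ESR1 were among the lower genes. TBX18, a T-box factor of urogenital mesenchyme, gave 13.1, 11 and 11.9 TPM in PEO4 against 0.866, 1.08 and 0.972 TPM in PEO6. The lines did not overlap in GATA6 or TBX18, as in 2880 of the 3043 called genes, and PEO6 replicate 3 was no exception. MEIS1, the most abundant member not called, gave 121 to 135 TPM in PEO4 and 131 to 176 TPM in PEO6. Of 16 tested HOX genes, 2 were higher (HOXC4, HOXD8) and 2 lower (HOXA7, HOXB2). HOXA7 went from 2.09, 2.13 and 2.51 to 0.182, 0.309 and 0.257 TPM, and of these 4 it alone kept its call without replicate 1 and without replicate 2.

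Of 29 tested mesenchymal genes, 12 were lower and 5 higher (median log2 fold change -0.23). VIM was at 328 to 415 TPM in PEO1, at 19.5, 24.4 and 35.0 TPM in PEO4 and at 1.22, 0.449 and 0.858 TPM in PEO6. Its fall from PEO4 to PEO6 was 5.07 ± 0.43 on the log2 scale (SE, adjusted p 8.96e-30). LOX, which crosslinks collagen, fell by 4.12 ± 0.38, from 6.17, 6.32 and 6.63 to 0.405, 0.241 and 0.576 TPM. Contractile genes of the same list went the other way. ACTA2, smooth muscle actin, gave 1.76, 2.91 and 2.15 TPM in PEO4 and 26.1, 38.3 and 33.6 TPM in PEO6, and MYL9, a myosin light chain, gave 25, 25.4 and 29.3 against 189, 296 and 239 TPM. When both libraries of replicate 2 were left out, 6 members were lower and 4 higher. The tropomyosin TPM2 was not called, at 398, 473 and 791 against 499, 658 and 479 TPM.

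Among 44 tested epithelial genes, 7 were higher and 4 lower. EHF, an ETS factor of differentiated epithelium, gave 0.801, 0.494 and 0.314 TPM in PEO4, 84.9, 61.1 and 118 TPM in PEO6 and 21.8 to 30.7 TPM in PEO1. EHF rose by 7.30 ± 0.36 on the log2 scale (SE, adjusted p 5.59e-90). KRT5, a basal keratin, gave 6.12, 6.16 and 5.95 TPM against 42.4, 45.5 and 137 TPM, and CLDN3, a tight junction claudin, 33.8, 36.4 and 26.4 against 105, 162 and 129 TPM. OVOL1, a zinc finger factor of epidermis, fell from 19.2, 19.7 and 16.7 to 1.79, 1.49 and 2.35 TPM. KRT8 and the E-cadherin gene CDH1 were not called (adjusted p 0.351 and 0.569), and their libraries overlapped, with CDH1 at 26.0 to 47.9 TPM in PEO4 and 21.7 to 47.5 TPM in PEO6. With the line as the only term the list held 7 higher and 5 lower genes, and without PEO6 replicate 3 as well it held 7 and 11.

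Cadherins other than CDH1 were among the groups with the most increases. Of 27 tested members of the classical, atypical and non-clustered cadherins, 13 were higher and 3 lower, with a median log2 fold change of 1.06. CDH6, kidney cadherin and a target of antibody-drug conjugates in ovarian cancer, was the most abundant of those that rose, at 23.7, 20.3 and 16.6 TPM in PEO4 and 101, 91.0 and 138 TPM in PEO6. PCDH9 gave 1.64, 0.973 and 0.48 against 35.4, 41.5 and 66.1 TPM, and CDH22 had 0.0939, 0.0279 and 0.0579 TPM against 3.86, 8.57 and 5.27 TPM. PEO6 exceeded PEO4 in every library for these genes, which were named because they were called. Of the 3043 called genes 2880 did not overlap between the lines. With all 33 libraries in one fit the call of CDH22 was lost (adjusted p 0.524). The list kept between 14 and 16 calls when any single library was left out with the line as the only term, and 7 and 8 without replicates 1 and 2.

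Collagens rose with them, at low levels. Of 29 tested, 13 were higher and 1, COL6A3, was lower, and the median log2 fold change was 0.96. The summed level of the 36 collagen genes in the table was 58.9, 42.8 and 33.2 TPM in PEO4 and 72.3, 118 and 88.9 TPM in PEO6. COL12A1, a fibril-associated collagen, gave 2.35, 1.92 and 1.83 against 9.0, 17.9 and 20.5 TPM, and COL3A1, a fibrillar collagen, 0.485, 0.412 and 0.488 against 6.71, 8.28 and 5.47 TPM. COL9A1, a cartilage collagen, went from 0.173, 0.126 and 0.16 to 12.4, 22 and 1.9 TPM, so that PEO6 replicate 3 was far below the other PEO6 libraries though above PEO4. COL4A2, a basement membrane collagen, showed the reverse order in PEO6, with 1.24, 1.74 and 6.34 TPM against 0.176, 0.137 and 0.0873 TPM. COL3A1 and COL1A2, both also fibroblast markers, were among the genes that rose, whereas DCN, LUM and PDGFRA stayed at the levels given above. With all 33 libraries in one fit COL3A1 was not called (adjusted p 0.543), and COL1A2 lost its call whichever replicate number was left out. The list had 6 calls without replicate 1 and 6 without replicate 2. COL18A1, the most abundant member not called, overlapped between the lines at 7.8 to 19.6 and 16.9 to 27.8 TPM.

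Integrins, laminins and other basement membrane genes split, with 8 higher and 11 lower of 34 tested (median log2 fold change -0.21). The summed level of the 35 genes was 1155 to 1793 TPM in PEO4 and 802 to 1229 TPM in PEO6. ITGA11 and NID2, named by their small adjusted p, are among the 8 that rose. ITGA11, the integrin chain that binds fibrillar collagen, rose by 7.19 ± 0.48 on the log2 scale (SE, adjusted p 1.58e-47), from 0.0889, 0.0754 and 0.0687 to 6.21, 11.8 and 12.5 TPM. NID2, a nidogen of the basement membrane, gave 0.173, 0.192 and 0.102 against 7.1, 9.9 and 5.91 TPM. The list had 7 calls without replicate 2 and 12 without replicate 1. ITGA3, the most abundant uncalled member, had overlapping libraries, and PEO6 replicate 3 lay within the PEO4 range (291 TPM, beside 214 to 393 TPM).

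MHC class II genes changed together, while class I genes did not. Class II molecules present extracellular peptides to helper T cells, and their genes share the coactivator CIITA. Of the 11 class II genes with CD74 and CIITA, 10 were higher and none lower (median log2 fold change 4.11). HLA-DOB alone did not pass, at 1.26 to 1.97 TPM in PEO4 and 2.19 to 3.33 TPM in PEO6. HLA-DRA gave 1.16, 1.67 and 0.771 TPM in PEO4 and 173, 334 and 63.3 TPM in PEO6, a log2 fold change of 7.09 ± 0.40 (SE, adjusted p 9.19e-67). CD74, the invariant chain, gave 3.72, 2.15 and 1.05 against 115, 332 and 97.5 TPM, and HLA-DMA, a peptide exchange factor, 6.62, 5.52 and 2.42 against 31.3, 54.5 and 31.8 TPM. CIITA itself rose from 0.466, 0.219 and 0.0445 to 3.06, 5.29 and 2.13 TPM. In each of these 4 genes replicate 2 was the highest PEO6 library and every PEO6 library exceeded every PEO4 library. Such non-overlap held for 2880 of the 3043 called genes, from which these were named. The summed level of the 11 genes was 16.6, 13.1 and 7.97 TPM in PEO4, 343, 772 and 210 TPM in PEO6 and 46.5 to 51.6 TPM in PEO1, where CD74 made up most of it. Of the leukocyte markers, 10 of 18 were at 0 in all 6 libraries, CD68 was lower in PEO6, and CD14 was at 0.783 to 0.992 TPM in PEO4 and 1.51 to 1.66 TPM in PEO6 without a call (adjusted p 0.448). The part of such cells in the class II result was not tested. Without replicate 2 in both lines 6 of the 11 were called, and without PEO6 replicate 3, 10.

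The promoters of CD74 and HLA-DMA are shown because class II promoters are known to carry a Y box, bound by NF-Y, whose core reads ATTGG, or CCAAT on the other strand. The 250 bases before the start are from RefSeq (GRCh38.p14), 5′ to 3′, with these letters in capitals wherever they occur on either strand.
CD74, chr5:150412911-150413160, minus strand: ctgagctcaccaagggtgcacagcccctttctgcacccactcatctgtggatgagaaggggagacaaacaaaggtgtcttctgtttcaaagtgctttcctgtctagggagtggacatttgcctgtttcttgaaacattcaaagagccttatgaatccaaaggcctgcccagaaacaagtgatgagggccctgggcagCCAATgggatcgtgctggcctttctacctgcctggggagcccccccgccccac
HLA-DMA, chr6:32953098-32953347, minus strand: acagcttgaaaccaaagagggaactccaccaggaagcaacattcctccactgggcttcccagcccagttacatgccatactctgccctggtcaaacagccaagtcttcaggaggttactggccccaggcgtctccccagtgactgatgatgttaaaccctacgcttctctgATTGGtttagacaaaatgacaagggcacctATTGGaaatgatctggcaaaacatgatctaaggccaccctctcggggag
CD74 holds 1 such match and HLA-DMA 2. Of the 9 genes of the group with a listed promoter, 8 hold at least 1, HLA-DPA1 being the exception, and so do 34.6% of the 12284 promoters of tested genes. A match describes the letters only.

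Among the 20 class I and peptide loading genes, 1 was higher (HLA-G, at no more than 1.37 TPM) and 2 lower, with a median log2 fold change of -0.02. Neither of the 2 lower genes was called by edgeR. B2M, the shared light chain, had overlapping libraries at 2687 to 3657 and 2454 to 4303 TPM. Reads of HLA genes can be divided among near-identical members, which makes the value of a single HLA gene uncertain.

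Interferon-stimulated genes, which respond to viral infection and to nucleic acid in the cytosol, were at similar total levels in both lines. The 42 genes summed to 10403, 9648 and 7144 TPM in PEO4 and 9300, 9011 and 8832 TPM in PEO6, and to 614 to 793 TPM in PEO1. Individual members nevertheless differed, 2 being higher and 11 lower (median log2 fold change -0.35). HERC5, an ISG15 ligase, gave 34.4, 26.0 and 13.0 TPM against 6.35, 2.64 and 8.49 TPM, and OASL and IFIT2 fell by 1.56 ± 0.35 and 1.48 ± 0.35 on the log2 scale (SE). BST2, the tetherin that holds back budding viruses, rose from 94.8, 64.6 and 26.7 to 276, 451 and 489 TPM. IFI27, the most abundant member, had 2492 to 3238 TPM in PEO4 and 3323 to 4207 TPM in PEO6 and was not called (adjusted p 0.522). Without replicate 2 the calls of OASL and IFIT2 were lost (adjusted p 0.193 and 0.248). With the line as the only term the list had 17 calls, and 20 without PEO4 replicate 3 and 20 without PEO6 replicate 3. With the replicate term kept, it had 2 without both libraries of replicate 2. Of 35 tested cytokine, chemokine and NF-kB genes, 5 were higher and 8 lower. CCL5, a T cell chemokine, fell from 70.8, 63.2 and 63.3 to 15, 9.51 and 19.6 TPM, and CSF1, the macrophage growth factor, rose from 2.84, 2.59 and 3.2 to 8.37, 12.1 and 21.0 TPM. The call of CCL5 was lost with all 33 libraries in one fit (adjusted p 0.11).

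In the WNT, TGF-beta and receptor kinase lists more genes were called lower than higher. In the WNT pathway, 12 of 44 tested genes were lower and 2 higher (median log2 fold change -0.47). The transcription factor TCF7 gave 42.7, 45.2 and 49.1 TPM in PEO4 and 5.07, 4.36 and 7.42 TPM in PEO6, a fall of 3.14 ± 0.30 on the log2 scale (SE, adjusted p 1.16e-23). AXIN2, a feedback target of beta-catenin, went from 10.0, 6.83 and 6.08 to 1.07, 1.37 and 2.26 TPM. The ligand WNT11 and the antagonist SFRP1 fell by 2.25 ± 0.34 and 2.06 ± 0.34. Ligand, antagonist, transcription factor and target were thus all among the genes that fell. They were named because they were called, and 2880 of the 3043 called genes did not overlap between the lines. Their own lack of overlap is therefore no further support.

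In the TGF-beta and BMP pathway 15 of 46 tested genes were lower and 5 higher. The BMP ligand BMP4 gave 4.05, 4.52 and 5.98 against 0.308, 0.292 and 0.819 TPM, and the decoy receptor BAMBI 19.1, 23.1 and 22.2 against 1.86, 1.63 and 3.96 TPM. ID genes, direct targets that block basic helix-loop-helix factors, fell in 3 of 4 cases. ID1 gave 196, 297 and 314 TPM in PEO4 and 55.2, 19.5 and 41.8 TPM in PEO6, and ID3 38.9, 64.2 and 54.9 against 7.28, 3.78 and 7.42 TPM. ID4, the fourth, stayed within overlapping ranges at 396 to 521 and 344 to 664 TPM. Among 23 tested Notch genes 3 were higher and 5 lower, but without both libraries of replicate 2 there were 3 higher and none lower, and without replicate 1 there were 3 and 1. The ligand JAG1 rose from 0.419, 0.377 and 0.32 to 3.74, 4.92 and 9.25 TPM and the target HEY2 from 0.888, 1.13 and 0.674 to 29.2, 37.6 and 33.6 TPM, while the target HES1 fell by 1.53 ± 0.39 on the log2 scale (SE, adjusted p 0.00129). HES1 was not called without PEO4 replicate 2 (adjusted p 0.0542, line term alone).

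Of 53 tested receptor tyrosine kinases and ligands, 14 were lower and 7 higher. IGF1R gave 23.1, 22.1 and 14.4 TPM in PEO4 and 2.08, 2.95 and 2.48 TPM in PEO6, and its ligand IGF2 3.47, 4.22 and 3.75 against 44.2, 33.7 and 39.9 TPM. Receptor and ligand thus moved in opposite directions, by -3.03 ± 0.29 and 3.28 ± 0.31 on the log2 scale (SE). Without both libraries of replicate 2, the WNT, TGF-beta and receptor kinase lists had 6, 10 and 11 calls in place of 14, 20 and 21, and without replicate 1 they had 8, 12 and 13. MET was not called, and PEO6 replicate 3 gave its highest value (161 TPM, beside 103 to 147 TPM in PEO4).

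Stem cell markers did not move as a block. Of 18 tested, 4 were higher and 6 lower. Without both libraries of replicate 2 there were 2 higher and 2 lower, and without replicate 1 there were 3 and 3. While PROM1 rose, CD44, the hyaluronan receptor, fell from 38.3, 39.3 and 43.9 to 3.2, 2.6 and 7.14 TPM, and ALDH1A3, an aldehyde dehydrogenase, from 90.7, 81.5 and 114 to 2.6, 2.07 and 6.7 TPM. Both were higher still in PEO1, at 267 to 417 and 1343 to 1840 TPM. POU5F1 was at 0, 0.136 and 0 TPM in PEO4 and at 3.16, 4.24 and 1.82 TPM in PEO6, and because it has processed pseudogenes its value is uncertain. Its call was lost without replicate 2 (adjusted p 0.348).

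Surface and serum markers of ovarian carcinoma were higher in 10 and lower in 6 of 33 tested genes. MUC16, the CA125 antigen, gave 54.3, 43.2 and 25 TPM in PEO4 and 112, 154 and 112 TPM in PEO6, and FOLR1, the folate receptor targeted by mirvetuximab, 39.5, 35.4 and 22.9 against 68.6, 99.7 and 85.2 TPM. FOLR1 did not exceed 0.174 TPM in PEO1. CP (ceruloplasmin) and VTCN1 (B7-H4) rose by 6.01 ± 0.34 and 4.0 ± 0.51 on the log2 scale (SE). Without replicate 2 the list had 6 calls. Of the antibody-drug targets described here, CDH6, SLC34A2, FOLR1 and VTCN1 were higher in PEO6 than in PEO4 in every library. These were named because they were called, and the lines did not overlap in 42.1% of all genes tested.

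Genes tied to platinum handling showed no common direction. In platinum transport and detoxification 7 were higher and 7 lower of 46 tested, with a median log2 fold change of 0.03. GPX3, the extracellular glutathione peroxidase, fell from 106, 93.1 and 58.5 to 12.3, 12.9 and 25.1 TPM, and GSTA1 rose from at most 0.123 TPM to 3.01, 4.36 and 3.37 TPM, a ratio of 75.8 (95% counting interval 20.7 to 631). GSTA1 shares sequence with neighbouring family members, which leaves its value uncertain. MT1M rose from 6.06, 6.59 and 8.18 to 19.6, 23.7 and 63.7 TPM while MT2A fell, and of the 6 metallothioneins 3 were higher and 1 lower. GSTP1, the most abundant transferase, was not called, at 1005 to 1094 and 840 to 1173 TPM. NRF2 targets were lower in 6 and higher in 2 of 25 tested, among them HMOX1, heme oxygenase, at 6.41, 5.18 and 4.98 against 1.02, 0.872 and 1.63 TPM. Of 54 tested DNA repair genes 3 were higher and 6 lower, 16.7% in all, near the 18.2% of all genes tested. REV3L, the catalytic subunit of the translesion polymerase zeta, went from 24.0, 17.5 and 10.8 to 3.7, 4.22 and 6.2 TPM. SLFN11, which blocks stressed replication forks, went from 4.47, 3.17 and 2.39 to 7.99, 7.24 and 9.9 TPM, and was not called without replicate 2 (adjusted p 0.108). With the line as the only term, these 3 lists had 18, 12 and 16 calls in place of 14, 8 and 9. Without PEO6 replicate 3 as well they had 22, 13 and 23, and without PEO4 replicate 3 the repair list had 14. With the replicate term kept and without both libraries of replicate 2 the counts were 6, 1 and 1.

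Cell cycle genes were lower in PEO6 or not called. Of 49 tested, 22 were lower and none higher, with a median log2 fold change of -0.85, and edgeR called 17 lower and 1 higher. MYBL2, a regulator of late cell cycle genes, fell most clearly, from 159, 146 and 106 to 10.9, 11.2 and 43.5 TPM (log2 fold change -3.02 ± 0.40, SE, adjusted p 1.64e-12). AURKA gave 126, 123 and 120 against 54.9, 25.2 and 67.9 TPM, AURKB, its centromeric relative, 43.3, 42.9 and 50.4 against 16.7, 11.2 and 27.4 TPM, and RRM2, which makes deoxynucleotides, 181, 200 and 178 against 68.0, 36.4 and 102 TPM. PCNA, the sliding clamp, was not called and had overlapping libraries at 198 to 288 and 255 to 361 TPM. The summed level of the 51 genes was 4573, 4425 and 4060 TPM in PEO4, 2711, 1780 and 3610 TPM in PEO6 and 3726 to 5494 TPM in PEO1. PEO6 replicate 3 came closest to PEO4 and PEO6 replicate 2 was farthest. With the line as the only term there were 24 calls, and the number depended on single libraries. It was then 36 without PEO6 replicate 3, 14 without PEO4 replicate 1 and 14 without PEO4 replicate 2. With the replicate term kept, it was 1 without both libraries of replicate 2.

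Glycolysis and hypoxia genes showed a like pattern. Of 37 tested, 19 were lower and 1, ALDOC, was higher (median log2 fold change -0.82). The glucose transporter SLC2A1 gave 143, 130 and 96.0 TPM in PEO4 and 42.8, 35.5 and 47.9 TPM in PEO6, and PFKFB3, which drives the phosphofructokinase step, 41.4, 34.6 and 30.8 against 7.78, 6.7 and 12.8 TPM. Hypoxia targets fell as well. ADM, adrenomedullin, fell by 3.67 ± 0.37 on the log2 scale (SE, adjusted p 6.07e-21), from 45.9, 46.0 and 68.1 to 5.67, 3.46 and 3.95 TPM, and CA12, a carbonic anhydrase, fell by 3.71 ± 0.42. Hypoxia members were lower in 8 of 14 cases and glycolytic members in 11 of 23. ENO1 was not called, at 1353 to 2837 and 1003 to 2062 TPM. Summed over the list, PEO4 gave 24250, 24787 and 19666 TPM and PEO6 13963, 9612 and 17154 TPM, with the same order of the PEO6 libraries as for the cell cycle. The list had 5 calls without both libraries of replicate 2. Cholesterol and fatty acid synthesis had 1 call, SCD, lower, of 33 tested. With the line as the only term there were 3, and 15 without PEO6 replicate 3, beside 0 to 3 without any other single library. SCD itself was not called by edgeR (adjusted p 0.0878). In the unfolded protein and amino acid stress response 2 were higher and 3 lower of 28, 17.9% in all, near the 18.2% of all genes tested. NUPR1, a stress-induced nuclear protein, rose from 31.3, 37.9 and 39.1 to 185, 271 and 143 TPM, and the amino acid transporter SLC7A5 fell from 166, 168 and 128 to 22.2, 35.7 and 54.4 TPM. With the line as the only term that list had 13 calls. It then had 15 without PEO6 replicate 3, 9 without PEO4 replicate 1 and 8 without PEO4 replicate 3.

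**Figure D4:**
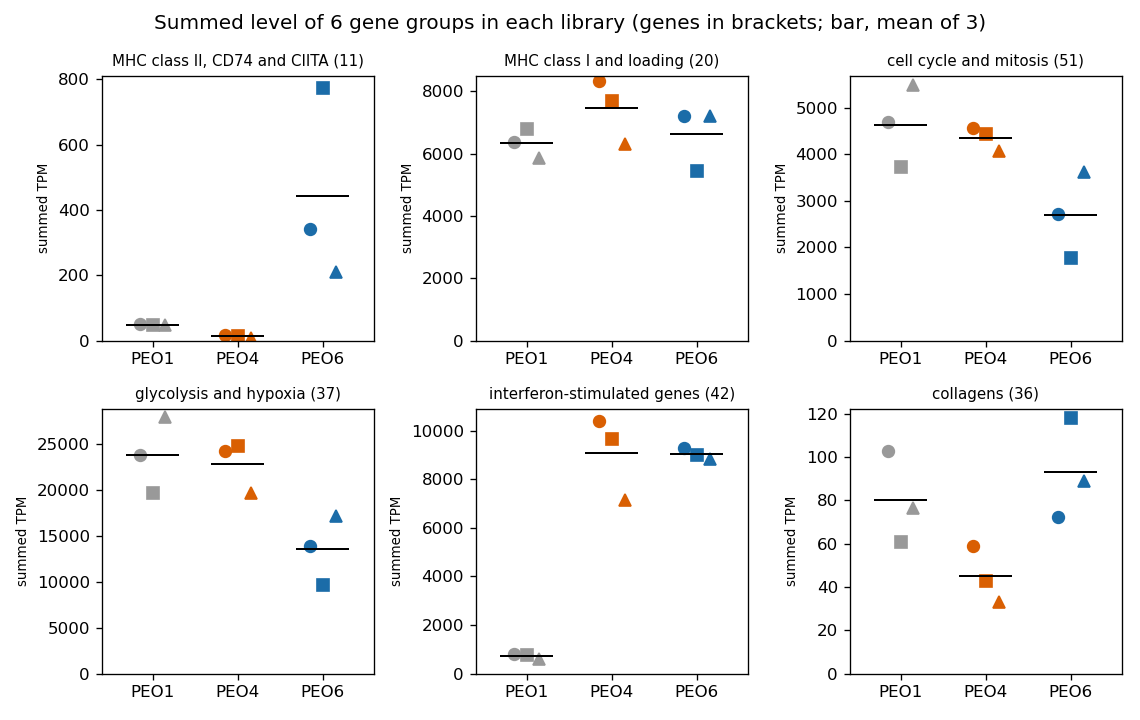
Summed TPM of 6 gene groups in each of the 9 libraries of the PEO family, with the number of genes in brackets. Symbols are replicates 1 (circle), 2 (square) and 3 (triangle), and bars are the means of 3. The class II group is at 7.97 to 16.6 TPM in PEO4 and 210 to 772 TPM in PEO6, and the cell cycle and glycolysis groups are lower in every PEO6 library than in any PEO4 library.

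Genes that changed also lay together on the chromosomes. Genes with a mean normalized count of at least 100 were ordered by their GRCh38.p14 position, and the median log2 fold change was taken in each window of 20 neighbours. Of 11089 windows, 138 had a median above 0.5 and 474 below -0.5, and overlapping windows of the same sign were joined into 27 runs. These runs were chosen by the contrast itself, so their values are descriptions. The longest covers most of the long arm of chromosome 6 (83067671 to 158199344). Of its 184 genes, 100 were called lower and 5 higher, 167 had a negative log2 fold change, and the median was -0.97. PHACTR2, a phosphatase and actin regulator, gave 71.9, 58.6 and 48.6 TPM in PEO4 and 4.04, 4.0 and 6.27 TPM in PEO6. STXBP5 and POPDC3 fell by 3.28 ± 0.29 and 3.98 ± 0.36 on the log2 scale (SE). TBX18 and REV3L, named above, lie in this run. HEY2 does as well, and is one of the 5 that rose, with CD24, LAMA4, CTGF and PPP1R14C, named here after their values were seen. A run at the end of the short arm of chromosome 6 (292487 to 16163887) held 52 genes, 20 lower and none higher, among them DSP, desmoplakin, at 47.0, 42.1 and 28.8 against 7.21, 8.24 and 18.8 TPM.

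Chromosome 20 carried runs of opposite sign. From 270863 to 31606510, 47 of 101 genes were higher and 2 lower (median log2 fold change 0.76, 92 positive), among them JAG1, PLCB1, RASSF2 and the cystatin gene CST2, which gave 1.23, 1.17 and 0.991 against 72.5, 83.2 and 44.3 TPM. A single fit over the 33 libraries did not call CST2 (adjusted p 0.461). ID1 is one of the 2 that fell there, with THBD. From 43457896 to 64276226, 57 of 135 genes were lower and 12 higher (median log2 fold change -0.73, 113 negative), among them MYBL2, AURKA, GNAS, PMEPA1 and CYP24A1, the vitamin D hydroxylase, which gave 5.52, 5.6 and 4.59 against 0.34, 0.227 and 0.18 TPM. On chromosome 17, from 73193055 to 81241310, 39 of 98 genes were lower and 5 higher, including SUMO2, TIMP2 and the glycosyltransferase MGAT5B. Called genes made up 36.0% of the genes tested on chromosome 20 and 30.6% on chromosome 6, beside 18.2% over all chromosomes and 9.84% on chromosome 19.

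The libraries of each line were close to each other over these runs. Relative to the PEO1 mean, the median log2 level of the chromosome 6 long-arm run was -0.09, -0.07 and -5.7e-05 in PEO4 and -0.82, -1.02 and -1.03 in PEO6. In the first run of chromosome 20 it was -0.97, -0.92 and -0.99 in PEO4 and -0.21, -0.20 and -0.13 in PEO6, so the departure from PEO1 was larger in PEO4. The other run of chromosome 20 stood at 0.44, 0.46 and 0.53 in PEO4 and at -0.27, -0.09 and -0.19 in PEO6. PEO6 replicate 3, which stood apart over all called genes, lay within or next to the other PEO6 libraries in these 3 runs. With the line as the only term the calls were 121 lower and 5 higher on chromosome 6. They were 60 higher and 2 lower in the first run of chromosome 20, and 73 lower and 12 higher in the other. Without PEO6 replicate 3 as well they were 122 lower and 6 higher, 58 higher and 5 lower, and 76 lower and 16 higher. With the replicate term kept and without both libraries of replicate 2 there were 21 lower and 2 higher on chromosome 6. In the first run of chromosome 20 there were 12 higher and 2 lower, and in the other 10 lower and 4 higher. DNA was not measured in these libraries.

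**Figure D5:**
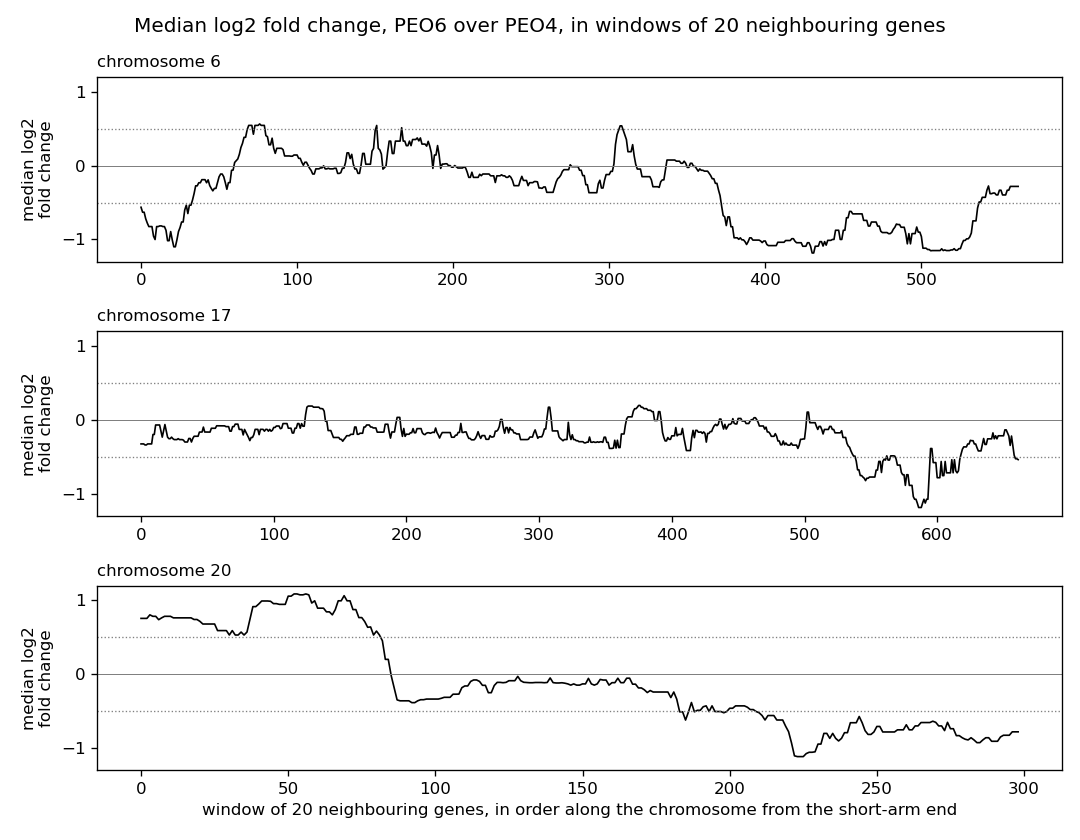
Median log2 fold change, PEO6 over PEO4, in windows of 20 neighbouring genes along chromosomes 6, 17 and 20, with windows in chromosomal order on the horizontal axis and dotted lines at 0.5 and -0.5. On chromosome 6 the long arm falls to about -1, and chromosome 20 goes from positive to negative medians along its length.

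PEO1 was placed beside both lines for each gene, as levels only. For genes called higher in PEO6, the PEO1 mean was nearer to the mean of PEO4 than to that of PEO6 in 1189 of 1650 (72.1%), on the log2 scale of normalized counts over the 9 libraries. For those called lower it was nearer to PEO4 in 891 of 1393 (64.0%), and for the 13685 genes tested and not called in 60.8%. PEO1 lay below both resistant lines in 640 of the higher and 222 of the lower genes, between them in 817 and 694, and above both in 193 and 477. PROM1 belongs to the minority in which PEO1 was nearer to PEO6, and VIM, CD44 and ALDH1A3 to the genes whose level was highest in PEO1, lower in PEO4 and lowest in PEO6. Across the 10755 genes with a mean normalized count of at least 100 and a matched transcript (91.6% of 11738), the log2 fold change had r = -0.04 with log2 transcript length and r = -0.01 with GC content, as a description over genes, which share the same libraries and are not independent replicates.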

How the data were processed

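The authors sequenced poly(A) mRNA and quantified it against GRCh38 with salmon in the nf-core RNA-seq workflow. They deposited expected counts and TPM per gene for all libraries, with gene symbols only. Expected counts were rounded to whole numbers, and DESeq2 1.42.0 (R 4.3.3) was run on the 6 libraries of PEO4 and PEO6 with the replicate number and the line as terms, as in the study's methods, median-of-ratios scaling and Benjamini-Hochberg adjustment. DESeq2's own filter on low counts decided which genes received an adjusted p. Strand setting is not given in the sources used here, so overlapping antisense genes cannot be told apart.

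Genes were named as the 12 largest fold changes each way among called, non-overlapping genes with a mean normalized count of at least 100, the 8 largest TPM differences each way, up to 4 called members of each list or run by adjusted p, and the most abundant member not called. Members of counts of 5 or fewer were also named, after their values were seen. The comparison, the gene lists and the tests were chosen with earlier results of these data known. A list of clustered protocadherins was not analysed here. Some genes that the naming rule selects are not reported here. Where a line had 0 counts, a floor of 3 counts per library gave a bound on the fold, and 95% counting intervals cover counting error only. Libraries held 24597206 to 33805970 counts. Gene positions and promoters were from RefSeq (GRCh38.p14), matched by symbol. edgeR 4.0.16 and limma 3.58.1 served for alternatives, with log2(TPM + 1) in limma, and the fitting was tested on simulated data.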

Additional observations from a re-analysis of the deposited data

How the results depend on the processing

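The number of calls moved with the libraries, the terms of the model and the unit used, and 3 libraries per line limit precision for genes of low count. The labels give both lines the same replicate numbers, but same-numbered libraries did not deviate together (r across 11738 genes -0.36, -0.16 and -0.48). Deviations from means of 3 libraries are not independent, so they cannot show whether the numbers mark a shared batch. In these deviations no library correlated best with the library of its own number in the other line. The highest r was 0.44, between PEO4 replicate 1 and PEO6 replicate 3. Without the replicate block 4563 genes were called, 2499 higher and 2064 lower. With the 9 libraries of the family in one fit the counts were 5072, 2609 and 2463, and with all 33 libraries 5011, 2797 and 2214. limma on log2(TPM + 1) called 974 (610 higher, 364 lower), with a pseudocount of 0.1 1052 (678 and 374), and without a filter 167 (99 and 68). Without both libraries of a replicate number, and with the replicate term kept, the calls ranged from 752 to 5223. Without a single library, and with the line as the only term, they ranged from 2720 to 6166, beside the 4563 above. Across both kinds of fit those higher ranged from 441 to 3081 and those lower from 311 to 3085. edgeR (2548 calls), a filter on counts (3022), TMM scaling (3014) and removal of the mitochondrial rRNA genes (3043) stayed within 1.5 times of 3043. Of the 3043 genes, edgeR called 2483 (81.6%) in the same direction, and no alternative called any in the opposite direction.

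The 303 calls among list members became 124 and 121 by limma with the larger and the smaller pseudocount and 23 without a filter, and ranged from 114 to 433 when libraries were left out. Of the 248 named genes 220 were called, 53 of them by limma without a filter and 139 to 219 when libraries were left out. Of these 220 calls, 48 held in every alternative that tested the gene and 131 in every alternative on counts that tested it. With all 33 libraries 15 were lost, and without replicates 1, 2 and 3 in turn 51, 81 and 2 were lost. No named gene reversed its direction with a call. The cell cycle list had 4 lower genes by limma on log2(TPM + 1), and the glycolysis list 6. Causes of these differences were not tested.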

Other observations

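A run of 30 genes on the short arm of chromosome 6 (24494969 to 28233487), chosen by the contrast, held 3 named histone genes that were higher in PEO6. HIST1H2BD gave 11, 10.9 and 11.8 TPM in PEO4 and 77.2, 63.7 and 51.6 TPM in PEO6 (DESeq2 log2 fold change 2.55 ± 0.37, SE, adjusted p 4.62e-10). HIST1H1C, a linker histone, gave 16.2, 16.1 and 16.4 TPM against 78.3, 68.2 and 70.9 TPM, and HIST1H2BK 32.8, 38.4 and 41.6 against 128, 158 and 118 TPM. In these genes, named because they were called, every PEO6 library exceeded every PEO4 library, and 2880 of the 3043 called genes did not overlap. Members of this family share sequence, which leaves the value of a single gene uncertain. Histone genes were not counted as a group, and HIST1H2BH, named after its values were seen, was called lower (log2 fold change -2.42 ± 0.58, SE, adjusted p 0.000447). BTN3A2, a butyrophilin of the same run, rose from 1.71, 1.63 and 1.52 to 8.21, 6.84 and 8.57 TPM. In that run 5 genes were called higher and none lower. With the line as the only term 6 were higher and none lower, and without PEO6 replicate 3 as well 11 were higher and 1 lower. Relative to the PEO1 mean, the median log2 level of the run was 1.05, 1.01 and 1.2 in PEO4 and 1.52, 1.56 and 1.21 in PEO6, so that PEO6 replicate 3 lay next to PEO4.

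Cancer-testis antigens, silent in most adult tissues, were mostly absent, with 26 of 45 at 0 in all 6 libraries. Of 6 tested, 3 were higher and none lower. XAGE2 gave 11.5, 10.2 and 12 TPM in PEO4 and 135, 88.1 and 102 TPM in PEO6, and SSX1 12.9, 12.4 and 13.5 against 92.3, 115 and 98.4 TPM. SSX1 was at 0.614 to 1.08 TPM in PEO1. SSX2, which has a near-identical copy, varied from 0 to 6.39 TPM in PEO4 and from 0 to 11.1 TPM in PEO6, so that its call rests on libraries that overlap. The call was lost in 14 alternatives, among them the fit without the replicate block (adjusted p 0.722) and each fit without a single library (0.454 to 0.892), which leaves 2 genes higher. The matrix protease MMP7 was at 0.226, 0.217 and 0 TPM in PEO4 and at 33.9, 19.3 and 23.8 TPM in PEO6. On chromosome 21 the claudin CLDN8 rose from 4.5, 3.49 and 2.45 to 32.0, 33.2 and 28.1 TPM. Of 161 tested genes of that chromosome 27 were called higher and 4 lower. Together these were 19.3%, beside 18.2% of all genes tested, where 9.86% were higher and 8.33% lower.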
